A study of Arabidopsis thaliana with 12 samples.

Results

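The genes described here are AT4G13580 (dirigent family), AT4G32460 (DUF642 family), SBT4.12 (AT5G59090, a subtilisin-like protease) and AT5G54370, 4 Arabidopsis thaliana genes grouped as cell wall genes with lower signal after heat. They were taken by name, as every probe set that the array annotation pairs with exactly 1 of these genes. This gave 4 probe sets, 1 per gene, of 18465 on the arrays, and 4 genes of the 10271 that have such a probe set. The genes were chosen by their heat changes in an earlier analysis of the same arrays, where their signal was low after heat. Their heat changes below are therefore a description and support nothing. The cell wall in the group's name comes from the gene families of AT4G13580, AT4G32460 and SBT4.12 and could not be checked on the arrays. No family is given here for AT5G54370, which carries the name only as a member of the group.

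RNA came from whole seedlings 7 days old, raised on plates (0.5x MS, 1% sucrose) at 22 °C, and was measured on 12 Affymetrix arrays. The 6 groups were QK, Ws and Col-0 after 1 h at 37 °C (heat), and QK, Ws and Col-0 kept at 22 °C (control), with 2 biological replicates each. Ws and Col-0 are natural accessions. In the literature QK lacks all class A1 heat shock factors, the main activators of heat shock genes. It carries mutant alleles from both accessions, so a difference from Ws can also come from the mixed background. Whole seedlings hold roots and shoots, and in such samples fewer cells of a type and less RNA per cell cannot be told apart. The labels call the replicates biological without naming separate plantings, so the tests measure the spread between these arrays. The median signal per array was 75.6 to 87.3, and the 2 arrays per group limit the precision of every value.

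The plant cell wall is a network of cellulose, hemicelluloses such as xyloglucan, pectin and, in some cells, lignin, and proteins secreted into it change how its polymers are linked and cut. Dirigent proteins guide the coupling of lignin and lignan precursors, and a member of the family is needed to place lignin in the Casparian strip of the root. DUF642 proteins are wall proteins of seed plants, and AT4G32460, also called BIIDXI, is linked in the literature to the activity of pectin methylesterases. Subtilisin-like proteases are mostly secreted enzymes that cut other proteins, among them wall enzymes. No function is stated here for AT5G54370.

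In 1 pair of arrays, labelled Col-0 replicate 2, the heat labels and the data disagreed. AT1G52560, a small heat shock protein known as a heat-induced chaperone, had 6546.9 and 11.8 in the arrays labelled Col-0 heat replicate 1 and 2, against 8.1 and 6264.4 in those labelled Col-0 control replicate 1 and 2. In Ws the same gene had 6882.0 and 7023.9 after heat, against 10.1 and 23.6 at control. AT1G53540, a cytosolic small heat shock protein, had 11501.6 and 11.7 in the arrays labelled Col-0 heat, against 12.8 and 11977.2 in those labelled Col-0 control. The groups were kept as labelled. Ws and QK were compared in a fit of their own 8 arrays, and every Col-0 value is given with and without the pair labelled replicate 2.

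AT4G13580 encodes a dirigent family protein. It had a signal of 49.1 and 24.1 in heated QK seedlings, against 374.7 and 335.4 in QK controls. In Ws it had 27 (rounded to a whole number) and 29.6 after heat, against 253.9 and 249.5 at control. All 4 heated arrays of these lines lay below all 4 control arrays, as they did for each member and for 12.8% of all tested probe sets. The array labelled Col-0 heat replicate 1 had 57.2, against 407.8 in Col-0 control replicate 1, which was the highest value of this gene on any array. In the pair labelled Col-0 replicate 2 the order was turned, with 153.0 in the array labelled heat and 32.8 in the array labelled control. The signal after heat was 13.1% and 7.19% of control in the QK pairs, and 10.4% and 11.9% in the Ws pairs. Its heated arrays were dim, at the 37.5 and 22.6 percentiles of the QK arrays and the 26.1 and 27.5 percentiles of the Ws arrays, and the part of background signal in these percentages was not tested.

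AT4G32460, the DUF642 gene, had 330.8 and 281.5 in heated QK seedlings, against 1749.0 and 2544.1 in QK controls. Heated Ws seedlings had 229.1 and 263.1, against 1232.2 and 1763.0 in Ws controls. The heated arrays of both lines again lay below every control array. On the arrays labelled Col-0 heat it had 210.9 and 890.6, against 1211.7 and 305.8 on those labelled Col-0 control. It still stood between the 75.3 and 82.4 percentiles of the heated QK and Ws arrays, against 95.8 to 98.4 of the control arrays, so that it was lower after heat but not dim.

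SBT4.12, the protease gene, had 85.9 and 58.5 in heated QK seedlings, against 411.0 and 630.3 in QK controls. In heated Ws seedlings it had 61.6 and 84.9, against 284.7 and 590.3 in Ws controls. The groups did not overlap, but the Ws controls differed 2.07-fold between replicates, more than the heated Ws arrays (1.38-fold). Under the Col-0 labels it had 63.3 and 399.6 for heat, against 439.0 and 69.7 for control.

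AT5G54370 had 28.5 and 24.9 in heated QK seedlings, against 287.5 and 385.3 in QK controls. Heated Ws seedlings had 20.3 and 18.8, against 105.5 and 228.1 in Ws controls. Its heated arrays in QK and Ws were low and close together, and its controls were spread up to 2.16-fold between Ws replicates. The arrays labelled Col-0 heat had 17.0 and 123.6, against 140.5 and 13.5 for those labelled Col-0 control. After heat it stood at the 20.6 and 18.3 percentiles of the Ws arrays and lay on all 4 QK and Ws arrays under the 35th percentile, which was used to leave out dim probe sets. It thus entered the tests only through its brighter arrays and had to differ. Detection calls were not used here, so whether its signal after heat was above background is not known.

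**Figure D1:**
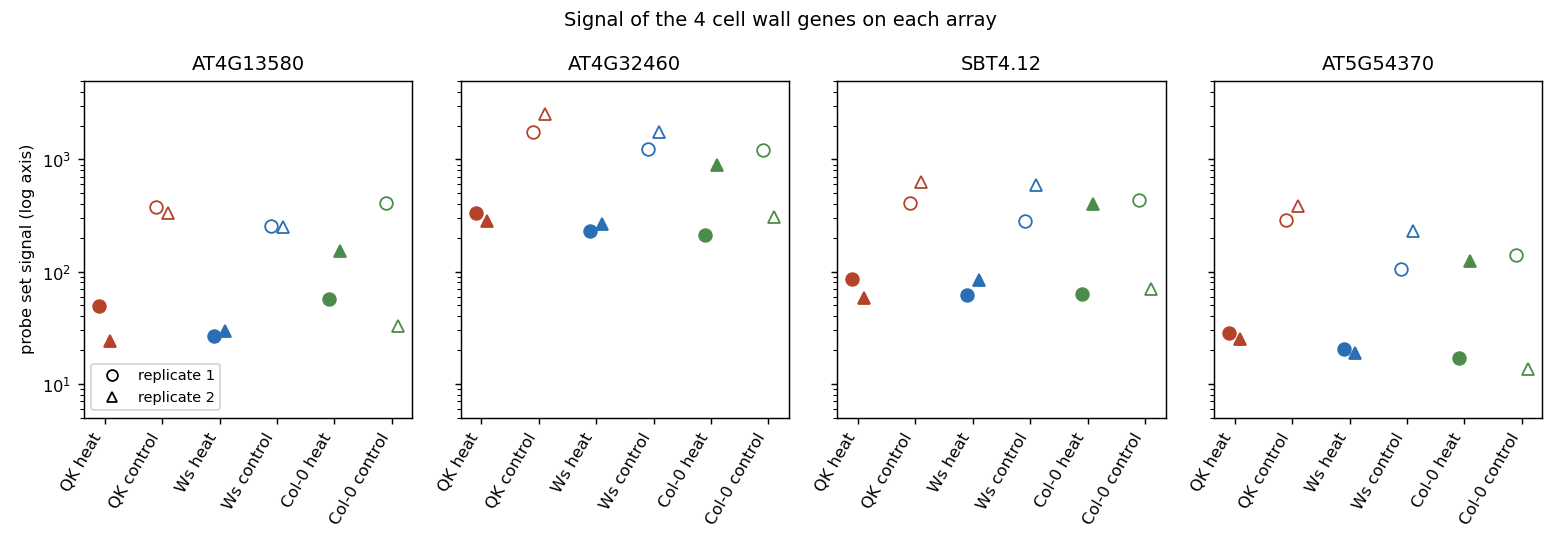
Signal of the 4 genes on the 12 arrays (vertical log axis, signal units), with a panel per gene and a column per labelled group. Filled points are arrays labelled heat and open points arrays labelled control, circles are replicate 1 and triangles replicate 2. In QK and Ws every heat point lies below every control point of the same gene, and in Col-0 the triangles are turned against the circles, as for AT5G54370 with 123.6 labelled heat and 13.5 labelled control.

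Expressed as a change of log2(signal + 16), AT5G54370 differed after heat by -3.03 in QK and -2.28 in Ws (SE 0.33 each). AT4G13580 had -2.86 in QK and -2.60 in Ws (SE 0.24 each), AT4G32460 had -2.73 and -2.51 (SE 0.27 each), and SBT4.12 had -2.59 and -2.27 (SE 0.39 each). These were among the lowest changes on the arrays. Counted from the lowest of 13631 tested probe sets, AT5G54370 stood at place 2 in QK and 12 in Ws, AT4G13580 at 5 and 6, AT4G32460 at 7 in both lines, and SBT4.12 at 9 and 13. Calls required a limma adjusted p under 0.05 together with a 2-fold difference or more. By this rule 4 of the 4 genes were lower in each line, where 1.36% of all tested probe sets were lower in QK and 2.05% in Ws. As these contrasts chose the genes, nothing is read from the counts. Fitted together with the Col-0 arrays as labelled, 0 of the 4 were called in either line, where 0.00734% of all tested probe sets were lower in QK and 0% in Ws. The differences themselves were the same in both fits. The SE was larger with 12 arrays, as for AT4G13580 with 0.85, against 0.24 with 8. With 12 arrays it takes in the spread between Col-0 arrays of the same label, the pair labelled replicate 2 included. For AT4G13580 the arrays labelled Col-0 control had 407.8 and 32.8. All 4 had an unadjusted limma p under 0.05 in each line, as did 10.7% of all tested probe sets in QK and 12.6% in Ws. The Ws count was 2 without Ws heat replicate 1 or 2. The QK count was 2 without QK heat replicate 1 or QK control replicate 2, and 1 without QK heat replicate 2. Over all these fits the changes stayed between -2.78 and -1.76 in Ws and between -3.23 and -2.29 in QK. The 16 added before the logarithm matters most for AT5G54370, whose change in Ws was -2.93 with 1 added and -1.41 with 64 added.

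**Figure D2:**
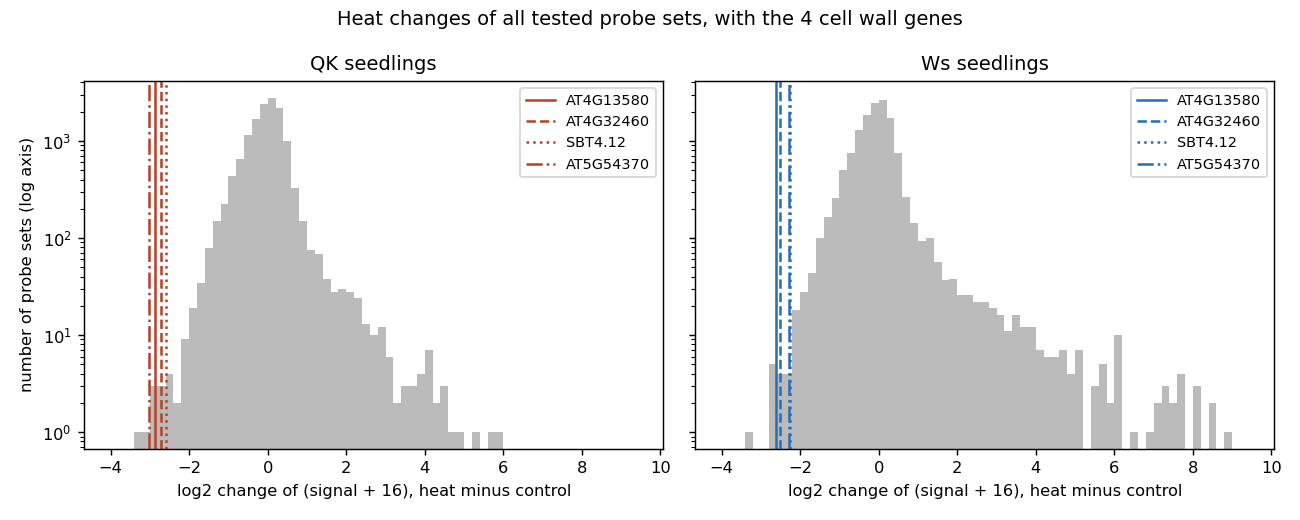
Log2 change of (signal + 16), heat minus control (horizontal axis), for all 13631 tested probe sets, with their number on a log axis, in QK (left) and Ws (right). The vertical lines mark the 4 genes, which lie at the low end, at -3.03 to -2.59 in QK and at -2.60 to -2.27 in Ws.

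Within same-numbered pairs the 4 genes moved by similar amounts. The change of AT4G13580 was -2.59 and -3.13 in the QK pairs and -2.67 and -2.54 in the Ws pairs. That of AT4G32460 was -2.35 and -3.11 in QK, and -2.35 and -2.67 in Ws. SBT4.12 had -2.07 and -3.12 in QK, and -1.95 and -2.59 in Ws, and AT5G54370 had -2.77 and -3.29 in QK, and -1.74 and -2.81 in Ws. Replicate pair 2 showed the lower value for every gene in QK and for all but AT4G13580 in Ws. The controls of replicate 2 were brighter than those of replicate 1 for AT4G32460, SBT4.12 and AT5G54370 in both lines, and dimmer for AT4G13580. In Col-0 pair 1 the changes were -2.53, -2.44, -2.52 and -2.25 for AT4G13580, AT4G32460, SBT4.12 and AT5G54370. The pair labelled replicate 2 gave changes of the opposite sign, 1.79, 1.49, 2.28 and 2.24 in the same order of genes. With all 12 arrays the Col-0 fit therefore gave differences between -0.47 for AT4G32460 and 0.00 for AT5G54370, with 0 of the 4 genes called by limma and 0 at an unadjusted p under 0.05. In that fit 0% of all tested probe sets were called lower and 0.0587% had such an unadjusted p. Without that pair each Col-0 arm holds 1 array, assumed to vary like the other groups, and 2 of the 4 were lower, AT4G13580 and AT4G32460, where 0.426% of all tested probe sets were. With the replicate number as a block as well, 4 were lower, against 3.26% of all.

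**Figure D3:**
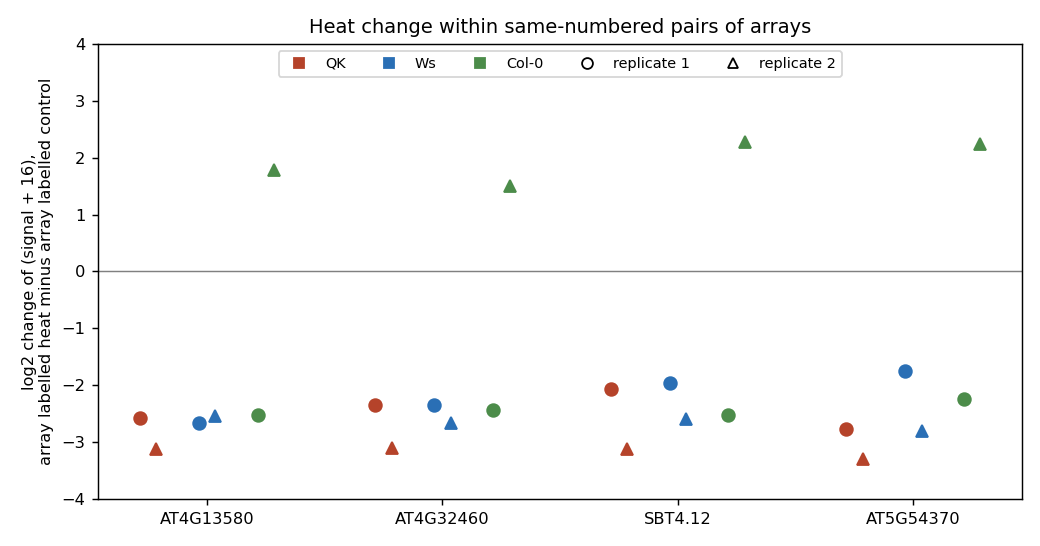
Log2 change of (signal + 16) from the array labelled control to the array labelled heat with the same replicate number (vertical axis), for each gene, by line (colour) and replicate (shape). All QK and Ws pairs and Col-0 pair 1 lie between -3.29 and -1.74, and the pair labelled Col-0 replicate 2 lies between 1.49 and 2.28.

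Levels in QK and Ws were compared next. They come from the arrays whose heat changes chose the genes, so these comparisons are not independent of the choice either. At 22 °C the 4 genes had higher means in QK. AT5G54370 had 336 ± 69.2 in QK and 167 ± 86.7 in Ws (SD, n = 2 each), and AT4G13580 had 355 ± 27.8 in QK and 252 ± 3.11 in Ws. For both genes the QK control arrays lay above the Ws control arrays, an order found in 15.9% of all tested probe sets. AT4G32460 had 2147 ± 562 in QK and 1498 ± 375 in Ws, and SBT4.12 had 521 ± 155 in QK and 438 ± 216 in Ws (SD, n = 2 each), each with arrays of both lines overlapping. Within both same-numbered pairs of control arrays QK was above Ws for all 4 genes. The share of all tested probe sets with this order was not counted, so nothing is read from it.

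None of these differences passed the limma test. The largest was that of AT5G54370, log2 1.02 (95% interval 0.22 to 1.82, limma adjusted p = 0.588, unadjusted p = 0.0201). AT4G32460 differed by 0.51 (-0.13 to 1.16, limma adjusted p = 0.855), AT4G13580 by 0.47 (-0.11 to 1.05, limma adjusted p = 0.847) and SBT4.12 by 0.30 (-0.65 to 1.25, limma adjusted p = 1.00). Thus 0 of the 4 were called and 1 had an unadjusted p under 0.05, where 0.183% of all tested probe sets were called and 6.85% had such an unadjusted p. Blocking on the replicate number gave 0 calls and 2 genes with an unadjusted p under 0.05, AT4G32460 and AT5G54370, against 0.778% and 16.9% of all tested probe sets.

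After heat the estimated differences between the lines were smaller. This change in difference is the contrast of heat responses below, which was called for none of the 4 genes. AT4G13580 and AT5G54370 were dim after heat, and the part of background signal was not tested. AT4G13580 had 36.6 ± 17.7 in QK and 28.1 ± 2.19 in Ws, and AT4G32460 had 306 ± 34.9 in QK and 246 ± 24.0 in Ws (SD, n = 2 each). SBT4.12 had 72.2 ± 19.4 in QK and 73.3 ± 16.5 in Ws, and AT5G54370 had 26.7 ± 2.55 in QK and 19.6 ± 1.06 in Ws (SD, n = 2 each). The QK arrays lay above the Ws arrays for AT4G32460 and AT5G54370, as for 25.6% of all tested probe sets. The log2 differences were 0.21 (95% interval -0.36 to 0.79) for AT4G13580, 0.30 (-0.35 to 0.94) for AT4G32460, -0.02 (-0.97 to 0.93) for SBT4.12 and 0.26 (-0.53 to 1.06) for AT5G54370. Limma called 0 of the 4, with 0 at an unadjusted p under 0.05, against 4.66% and 17.3% of all tested probe sets.

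The difference between the heat responses of QK and Ws shares its arrays with the contrasts that chose the genes. It was -0.76 for AT5G54370 (95% interval -1.88 to 0.37), -0.32 for SBT4.12 (-1.66 to 1.02), -0.25 for AT4G13580 (-1.07 to 0.56) and -0.22 for AT4G32460 (-1.13 to 0.69). The sign was negative for all 4, which is a lower value after heat relative to control in QK than in Ws, and 0 were called by limma (adjusted p = 1.00 for each) or had an unadjusted p under 0.05. Of all tested probe sets 1.34% were called in this contrast and 6.56% had such an unadjusted p. The share of all tested probe sets with a negative sign was not counted, so nothing is read from the signs. AT5G54370 was dim after heat in both lines, and the part of background signal in its difference was not tested. The intervals are wide, and they do not show that the lines respond alike. In the same heated arrays the small heat shock protein AT1G52560 had 10.2 and 99.6 in QK, against 6882.0 and 7023.9 in Ws. AT1G53540 had 18.2 and 914.7 in heated QK, against 9265.6 and 12518.0 in heated Ws, and 11.3 and 10.4 in QK controls. For both of these genes heated QK replicate 2 was thus above heated QK replicate 1.

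**Figure D4:**
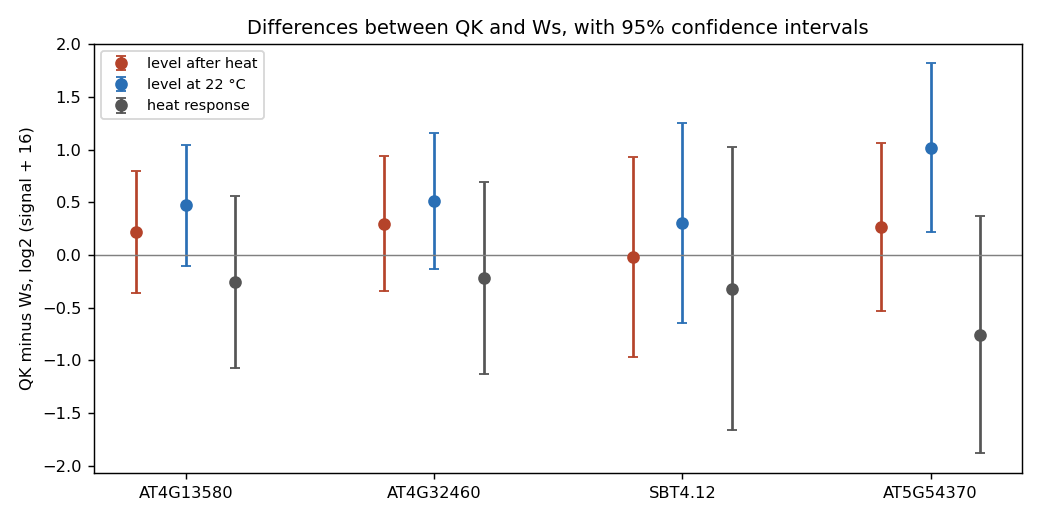
QK minus Ws difference in log2(signal + 16) (vertical axis) for the level after heat, the level at 22 °C and the heat response of each gene, with 95% confidence intervals of the limma fit to 8 arrays. All intervals except that of AT5G54370 at 22 °C (0.22 to 1.82) include 0. The fit has no replicate block, and with the block the interval of AT4G32460 at 22 °C (0.02 to 1.00) does not include 0 either.

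Col-0 was compared with the other lines over both temperatures, a mean that does not depend on which array of a pair was heated. The intervals and tests with 12 arrays do depend on it. They take in the spread between Col-0 arrays of the same label, as 407.8 and 32.8 for AT4G13580 in the arrays labelled control. QK minus Col-0 was 0.85 for AT5G54370 (95% interval -0.50 to 2.19), 0.63 for AT4G32460 (-0.54 to 1.80), 0.18 for SBT4.12 (-1.28 to 1.63) and 0.12 for AT4G13580 (-1.25 to 1.49). Ws minus Col-0 was 0.23 for AT4G32460 (-0.94 to 1.4), 0.20 for AT5G54370 (-1.14 to 1.55), 0.04 for SBT4.12 (-1.42 to 1.49) and -0.22 for AT4G13580 (-1.59 to 1.15). Limma called 0 of the 4 in either comparison, with 0 at an unadjusted p under 0.05, where 2.11% of all tested probe sets were called for QK and 0.528% for Ws, and 15.8% and 6.76% had such an unadjusted p. Without the pair labelled Col-0 replicate 2 it called 0 as well, against 2.45% of all for QK and 0.558% for Ws. In that fit 2 members had an unadjusted p under 0.05 for QK and 1 for Ws, against 17.4% and 10.1% of all. AT4G13580 then had -0.36 in QK minus Col-0, a turned sign, and -0.70 in Ws minus Col-0 (-1.20 to -0.20, limma adjusted p = 0.32).

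At 22 °C the levels over QK, Ws and Col-0 control replicate 1 can be set in order only with 1 Col-0 array, whose spread is unknown. AT4G32460 and AT5G54370 had their highest means in QK. SBT4.12 had 521 in QK, 439.0 in Col-0 replicate 1 and 438 in Ws, all within the spread of the Ws and QK replicates. AT4G13580 had 407.8 in Col-0 replicate 1, 355 in QK and 252 in Ws. Its Ws minus Col-0 difference over both temperatures lay between -1.0 and 0.56 as single arrays were left out. These ends came from leaving out Col-0 control replicate 2 and Col-0 control replicate 1. The Col-0 mean then depends on which array was heated, so this range cannot tell the order at 22 °C.

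The genes most like each of the 4 were sought among 7290 tested probe sets of other single genes, by Pearson's r of log2(signal + 16) over the 12 arrays. Since the arrays fall into bright and dim sets, r mainly reports that split, and it is given without a p. Among themselves the 4 genes had r between 0.934, for AT4G13580 and AT5G54370, and 0.983, for AT4G32460 and AT5G54370. AT5G54370 was most like THE1 (r 0.983), a receptor kinase of the plasma membrane known for sensing disturbed cell walls, then AT1G02810 (0.976), of the pectin methylesterase family, and AT1G26650 (0.975). AT4G32460 was most like AT2G45750 (0.976), AT1G02810 (0.973) and AT2G26730 (0.971). SBT4.12 was most like AT1G05150 (0.985), AT4G29270 (0.976) and AT2G26730 (0.971), and AT4G13580 was most like PRA1.B6 (0.982), AT5G12940 (0.980) and AT3G54200 (0.978).

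THE1 is also the next protein-coding gene to AT5G54370 on chromosome 5 in the gene table used, and the 2 gene models do not overlap there. It had 108.5 and 111.4 in heated QK seedlings, against 329.6 and 374.9 in QK controls, and 117.3 and 92.6 in heated Ws seedlings, against 177.1 and 253.8 in Ws controls. Its log2 difference, heat minus control, was -1.55 in QK and -0.92 in Ws (SE 0.21 each), given as a description since THE1 was picked for its likeness on the same arrays. HL, the gene after THE1, had -0.34 in QK and -0.52 in Ws. Tested genes near the other members lay closer to 0. AT4G32470 and AT4G32440, beside AT4G32460, had 0.07 and 0.22 in QK and 0.07 and 0.27 in Ws. AT5G59080, near SBT4.12, had 0.05 in QK and -0.02 in Ws, and no tested gene lay within 3 places of AT4G13580.

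Other genes of the cell wall were lower after heat more often than they were higher, but few passed the test. Over 49 tested genes of the wall lists, 4 fell and 2 rose in QK, and 7 fell and 0 rose in Ws. These are 8.16% and 4.08% in QK and 14.3% and 0% in Ws, where 1.36% of all tested probe sets fell and 1.17% rose in QK, and 2.05% fell and 3.46% rose in Ws. The median log2 change of the 49 was -0.80 in QK and -0.94 in Ws, against 0.00 and -0.05 for all tested probe sets. The lists were drawn up with earlier results of these arrays known and are described by their counts. They do not hold every wall gene and took in PMEAMT by its name stem, a gene that is not of the wall and was not called. Other genes of the 49 may not act in the wall either. In the fit to all 12 arrays the lowered counts were 0 in both lines, where 0.00734% of all tested probe sets were lower in QK and 0% in Ws. That fit takes in the spread between Col-0 arrays of the same label. As single arrays were left out, the lowered count in QK was 0 without QK heat replicate 2 or QK control replicate 1, 1 without QK control replicate 2 or either Ws heat array, 2 without QK heat replicate 1 and 4 otherwise. The lowered count in Ws was 1 without either Ws heat array or Ws control replicate 1, 3 without Ws control replicate 2, 4 without either QK heat array and 5 otherwise. The raised count in QK was 0 without any 1 of the 4 QK arrays and 1 without Ws heat replicate 1 or 2. Blocking on the replicate number gave 12 lowered genes in QK and 20 in Ws, and 3 raised in QK and 0 in Ws. Under that block 3.31% of all tested probe sets fell and 2% rose in QK, and 4.17% fell and 4.03% rose in Ws.

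Among relatives of the members, 2 of 6 tested subtilases other than SBT4.12 fell in both lines. SBT1.3 had 87.1 and 63.0 in heated QK seedlings, against 258.8 and 214.3 in QK controls (log2 -1.48), and -1.42 in Ws. ATSBT5.2 changed by -1.51 in QK and -1.19 in Ws. With the replicate block 3 fell in each line, ARA12 being the other (log2 -1.53 in QK and -1.31 in Ws). Of 6 tested DUF642 genes other than AT4G32460, 0 fell in QK and 1 in Ws, AT5G11420 (log2 -1.17), whose QK change of -1.33 missed the threshold (limma adjusted p = 0.0505). Blocking on the replicate number gave 2 lower in each line, AT5G11420 and AT2G41800 (log2 -1.80 in QK and -1.24 in Ws). The median change of these DUF642 genes was -0.95 in QK and -0.84 in Ws. No other dirigent gene was found by name among the single-gene probe sets.

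In the list of pectin enzymes 1 of 5 tested genes fell in both lines. It was ATPMEPCRB, a pectin methylesterase, with 13.8 and 14.2 in heated Ws seedlings, against 113.2 and 82.4 in Ws controls (log2 -1.91), and a log2 change of -1.20 in QK. PMEAMT, a methyltransferase and no pectin enzyme, was among the 5 by its name stem and was called in neither line. AT1G02810, of the pectin methylesterase family, was not in the list. It had -1.71 in QK and -1.65 in Ws, and was picked for its likeness on the same arrays. In the list named cellulose synthesis 1 of 7 fell in QK, CSLC04 (-1.33), and 3 in Ws, CSLC5 (-1.42), CSLD2 (-1.29) and COB (-1.25). COB had -1.32 in QK and was not called there. With the replicate block 2 fell in QK and 3 in Ws. CSLC04, CSLC5 and CSLD2 are cellulose synthase-like genes, and the CSLC family is known for making the xyloglucan backbone. The genes of this list other than COB were all cellulose synthase-like, and no cellulose synthase itself was among them. Of 7 tested xyloglucan endotransglucosylases, which cut and rejoin xyloglucan, 0 fell in either line and 2 rose in QK. With the replicate block 2 also fell in each line, XTH19 (log2 -1.57 in QK and -1.46 in Ws) and XTH32 (-1.36 in QK and -1.02 in Ws). XTH33 had 621.2 and 756.7 in heated QK seedlings, against 126.9 and 137.8 in QK controls (log2 2.24), and -0.21 in Ws. XTH16 had log2 1.99 in QK and 0.36 in Ws. The difference in response between QK and Ws missed the threshold for both (limma adjusted p = 0.0601 for XTH33 and 0.154 for XTH16). None of 12 tested expansins, which loosen walls, and none of 5 tested class III peroxidases was called in either line without the block. With the replicate block 2 expansins fell and 1 rose in QK and 5 fell in Ws, and 3 of the peroxidases fell in Ws and 0 in QK.

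**Figure D5:**
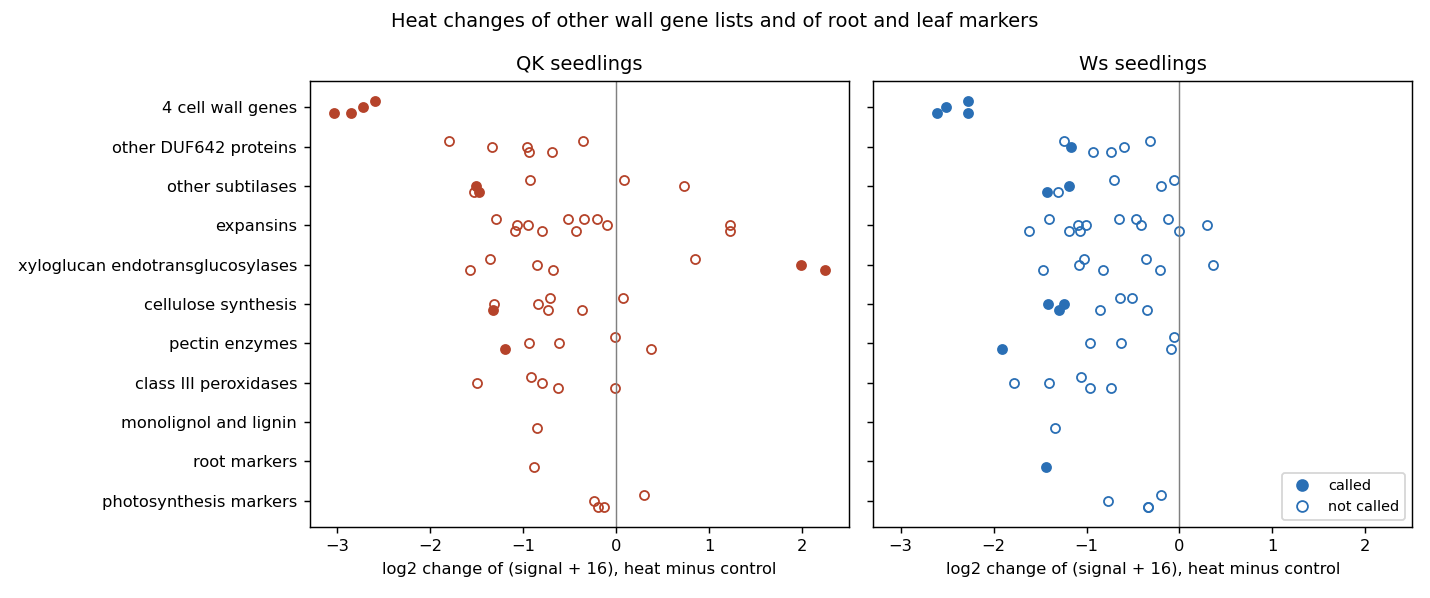
Log2 change of (signal + 16), heat minus control (horizontal axis), of each tested gene of the lists (rows), in QK (left) and Ws (right). Filled points were called and open points were not. The 4 cell wall genes of the top row, chosen for this change, lie below every gene of the other lists, and XTH16 and XTH33 lie to the right in QK.

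Markers of the seedling's parts were measured in small number. Of the root markers, only PYK10, a beta-glucosidase of roots and hypocotyls, had a single-gene probe set. It had 3644.3 and 3329.9 in heated QK seedlings, against 6070.2 and 6853.9 in QK controls, and 1740.0 and 1405.8 in heated Ws seedlings, against 4907.8 and 3710.6 in Ws controls. It fell in Ws (log2 -1.44, limma adjusted p = 0.00968) and had -0.89 in QK (limma adjusted p = 0.078). Of the photosynthesis markers 4 were tested and 0 were called in either line, with medians of -0.17 in QK and -0.34 in Ws. RCA, the activase of Rubisco, had between 9665.7 and 12768.4 in the heated QK and Ws arrays, against 12063.4 to 14175.2 in the controls. Leaf RNA was thus present on the QK and Ws arrays, and so was RNA of roots, hypocotyls or both, which PYK10 alone cannot tell apart. PYK10 moved in the same direction as the 4 cell wall genes, and the part of the root's share of RNA in their change was not tested.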

How the data were processed

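The authors deposited 1 linear signal intensity for each probe set of each array, and the submitters' processing notes name GCOS 1.4. The summary algorithm, scaling target, detection calls and genome build are not given in the sources used here. No further normalization was applied. Of 18465 probe sets the annotation pairs 10396 with exactly 1 gene, 398 with several and 7671 with none listed. Symbols were updated through gene IDs for the 10340 that matched the TAIR10.1 gene table, which served for names and gene order only.

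Signals were taken as log2(signal + 16). Probe sets over the 35th percentile in 2 or more of the 12 arrays were tested, which left 13631, of which 7294 had 1 gene. Models with 1 mean per group were fitted in limma 3.58.1 (R 4.3.3) with empirical Bayes moderation and a mean-variance trend. All tests were two-sided, adjusted by Benjamini-Hochberg over all tested probe sets, and called at an adjusted p under 0.05 and at least 2-fold. Comparisons of QK and Ws used their 8 arrays (4 residual degrees of freedom), and those with Col-0 used all 12 arrays as labelled (6). Where a Col-0 arm was left with 1 array, it was assumed to vary like the other groups.

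The members and the 13 gene lists were chosen with earlier results of these data known. Genes were named by a rule: the members, the 3 genes most like each of them, both heat checks, and up to 2 called genes per direction and list. AT4G32440, AT4G32470, AT5G59080 and HL were named as neighbours, and AT2G41800, ARA12, XTH19 and XTH32 for their calls under the replicate block, after their values were seen. PMEAMT and COB were also named after their values were seen, to describe what their lists hold. Where a gene had several probe sets, the one with the highest mean was used. A splicing factor that shared a name stem with the wall structural proteins was left out. PMEAMT, which shares a name stem with the pectin methylesterases, stayed in. The lists of other dirigent proteins, wall structural proteins and Casparian strip genes then had 0 single-gene probe sets, and that of lignin genes 1, HCT, which was not called with the 8 arrays and was lower in Ws with the replicate block.

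Same-numbered arrays of Ws and QK deviated together across probe sets, with a correlation of replicate differences between 0.587 and 0.807 in 6 of 6 pairs of groups, so the numbers pair these arrays. It was -0.173 for both Col-0 groups. The block is given as an alternative, and every SE, interval and call printed without naming it leaves this pairing out. The fit was tested on simulated data for heat against control in QK over 13631 probe sets. It recovered 72% of 100 probe sets lowered 4-fold and 87% of 100 lowered 8-fold, with 12 false calls in QK and 0 in Ws. The simulated noise was independent between arrays, and only probe sets with brighter controls were lowered. The real arrays deviate together by replicate number, so these rates need not hold for them. Alternatives were the replicate block, other sets of arrays, pseudocounts of 1 and 64, quantile normalization, no fold threshold, centring at the 75th percentile, fits without the variance trend or the dim filter, and each array left out in turn. Those for the counts over wall lists were added after seeing the data.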

Additional observations from a re-analysis of the deposited data

How the results depend on the processing

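The counts of members lower after heat were 0 in Ws and 0 in QK with all 12 arrays, where the log2 differences were those of the 8 arrays and the SE was larger. That SE takes in the spread between Col-0 arrays of the same label, the pair labelled replicate 2 included. With 2 arrays per group the counts also moved with single arrays, between 2 and 4 in Ws and between 1 and 4 in QK, while the log2 changes stayed between -2.78 and -1.76 in Ws and between -3.23 and -2.29 in QK. In Col-0 the count was 2 with 10 arrays and 4 with the replicate block and 10 arrays, against 0 with 12. Counts over the wall lists were 12 lower in QK and 20 lower in Ws with the replicate block, 2 and 4 with a pseudocount of 64, and 0 and 0 with all 12 arrays. Leaving out arrays gave 0 to 4 lower and 0 to 2 higher in QK and 1 to 5 lower in Ws. Comparisons of lines called 0 members under every alternative tried, the replicate block included.

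Some differences between lines, none of them called, changed sign. With the replicate block and 10 arrays, Ws minus Col-0 was -0.16 for SBT4.12 and -0.031 for AT5G54370, and QK minus Col-0 was -0.26 for AT4G13580 and -0.020 for SBT4.12. With 10 arrays QK minus Col-0 was -0.36 for AT4G13580. As arrays were left out, QK minus Ws at 22 °C lay between -0.21 and 0.80 for SBT4.12, and after heat between -0.13 and 0.56 for AT4G13580 and between -0.25 and 0.20 for SBT4.12. The difference in heat response lay between -0.60 and 0.10 for AT4G13580, -0.48 and 0.052 for AT4G32460, and -0.83 and 0.18 for SBT4.12. Ws minus Col-0 lay between -1.0 and 0.56 for AT4G13580, -0.27 and 0.73 for AT4G32460, -0.56 and 0.64 for SBT4.12, and -0.40 and 0.81 for AT5G54370. QK minus Col-0 lay between -0.66 and 0.90 for AT4G13580 and between -0.43 and 0.78 for SBT4.12. The ends of these ranges against Col-0 came from leaving out a Col-0 array, after which the Col-0 mean depends on which array was heated. The cause was not tested.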
